A study of Mus musculus with 6 samples.

Results

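Gbp2, Gbp3, Igtp, Irgm1, Iigp1, Ifi47, Tgtp1, Irf1 and Cxcl9 are 9 genes that interferon gamma induces, and their signals were followed lesion by lesion in 6 mouse lung metastases. They were taken by symbol, and a gene was measured through probe sets annotated with its symbol alone, using the brightest where there were several. Of the 9 genes, 8 had such a probe set, out of 12393 genes with one on the array. Tgtp1 had none of its own, because its 1 probe set was shared with a second gene, and no level is given for it. The metastases came from MMTV-Myc tumours, in which a viral promoter active in mammary epithelium drives the Myc oncogene, in mice of the FVB strain. The genotype was Myc E2F2 KO (KO) for 3 metastases and Myc E2F3 Het (Het) for the other 3, so all 6 carried Myc. They were collected at endpoint and frozen, and no metastasis with both E2F genes intact was analysed here. The 3 Het arrays carry 1 common number in their titles, which the labels do not explain, so they may come from 1 mouse. The labels do not state that each sample is a separate animal, and the p-values therefore cover only the spread between the samples of a fit, which may be partly technical. Where the Het arrays were averaged into 1 sample, that spread comes from the 3 KO samples alone.

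Interferon gamma, secreted mainly by T and NK cells, binds a receptor made of Ifngr1 and Ifngr2 and acts through the kinases Jak1 and Jak2. Short palindromic promoter elements called GAS respond to this signal, and one of the genes switched on is Irf1, a transcription factor that binds repeated GAAA motifs in many later genes. The guanylate-binding proteins (Gbp2, Gbp3) and the immunity-related GTPases (Igtp, Irgm1, Iigp1, Ifi47, Tgtp1) are made in most cell types after interferon exposure. The guanylate-binding proteins and the effector immunity-related GTPases attack the membranes around intracellular pathogens, whereas Irgm1 and Igtp are regulatory. Cxcl9 is a chemokine that draws activated T cells through the receptor Cxcr3.

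Promoters of 8 of the 9 genes were listed by RefSeq for the GRCm38.p6 build, in 10 windows, since Gbp3 and Irf1 had a second annotated start. The 250 bases before each start were searched on both strands for a GAS-type element, written TTCNNNGAA, and for an IRF-type element, which is GAAA, any 2 bases and GAAA again. The letters of the GAS-type element do not overlap those of the IRF-type element in these windows, but neighbouring IRF-type matches may share bases. The 6 promoters below, each 120 bases of the gene's own strand, are shown because they hold the elements through which the pathway is known to act. Capitals mark the matches. Gbp2 lies at chr3:142620543-142620662 (+), Gbp3 at chr3:142559924-142560043 (+), Irgm1 at chr11:48871421-48871540 (-), Igtp at chr11:58199436-58199555 (+), Tgtp1 at chr11:48992247-48992366 (-) and Irf1 at chr11:53769894-53770013 (+).
Gbp2: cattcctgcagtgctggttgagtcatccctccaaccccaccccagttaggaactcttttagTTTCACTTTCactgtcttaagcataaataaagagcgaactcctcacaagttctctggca
Gbp3: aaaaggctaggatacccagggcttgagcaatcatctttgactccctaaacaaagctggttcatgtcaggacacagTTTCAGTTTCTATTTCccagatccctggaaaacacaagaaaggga
Irgm1: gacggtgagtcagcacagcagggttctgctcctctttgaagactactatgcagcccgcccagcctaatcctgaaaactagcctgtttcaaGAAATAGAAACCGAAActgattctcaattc
Igtp: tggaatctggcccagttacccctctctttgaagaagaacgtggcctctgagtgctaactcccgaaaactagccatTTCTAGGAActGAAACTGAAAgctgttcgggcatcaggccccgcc
Tgtp1: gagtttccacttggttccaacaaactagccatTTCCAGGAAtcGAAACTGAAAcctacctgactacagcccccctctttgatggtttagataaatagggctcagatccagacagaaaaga
Irf1: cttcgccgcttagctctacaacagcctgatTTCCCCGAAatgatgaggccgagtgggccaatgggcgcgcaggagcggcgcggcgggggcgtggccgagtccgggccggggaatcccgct

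The IRF-type element was present in Gbp2, Gbp3, Irgm1, Igtp and Tgtp1, which are 5 of the 8 genes, whereas 2.98% of all 32851 listed promoters held it. In Gbp2 it stood 59 to 50 bases before the start and on the opposite strand. Gbp3 and Irgm1 each held a pair of overlapping matches, at 45 to 30 bases before the start in Gbp3 and at 30 to 15 in Irgm1. The GAS-type element was present in Igtp, Tgtp1 and Irf1, which are 3 of the 8 genes, against 7.02% of all promoters. In Irf1 it was TTCCCCGAA, 90 to 82 bases before the start, with no IRF-type match. Igtp and Tgtp1 held both elements side by side in the same order, a GAS-type element followed after 2 bases by GAAACTGAAA, an arrangement of both kinds that 0.332% of all promoters shared in any order or spacing. Counted by window, as the shares of all promoters are, at least 1 of the elements was found in 6 of the 10 windows, against 9.66%. The windows of Ifi47 and Cxcl9 and those at the second starts of Gbp3 and Irf1 held neither set of letters. A match describes the sequence and was not tested as a binding site.

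**Figure D1:**
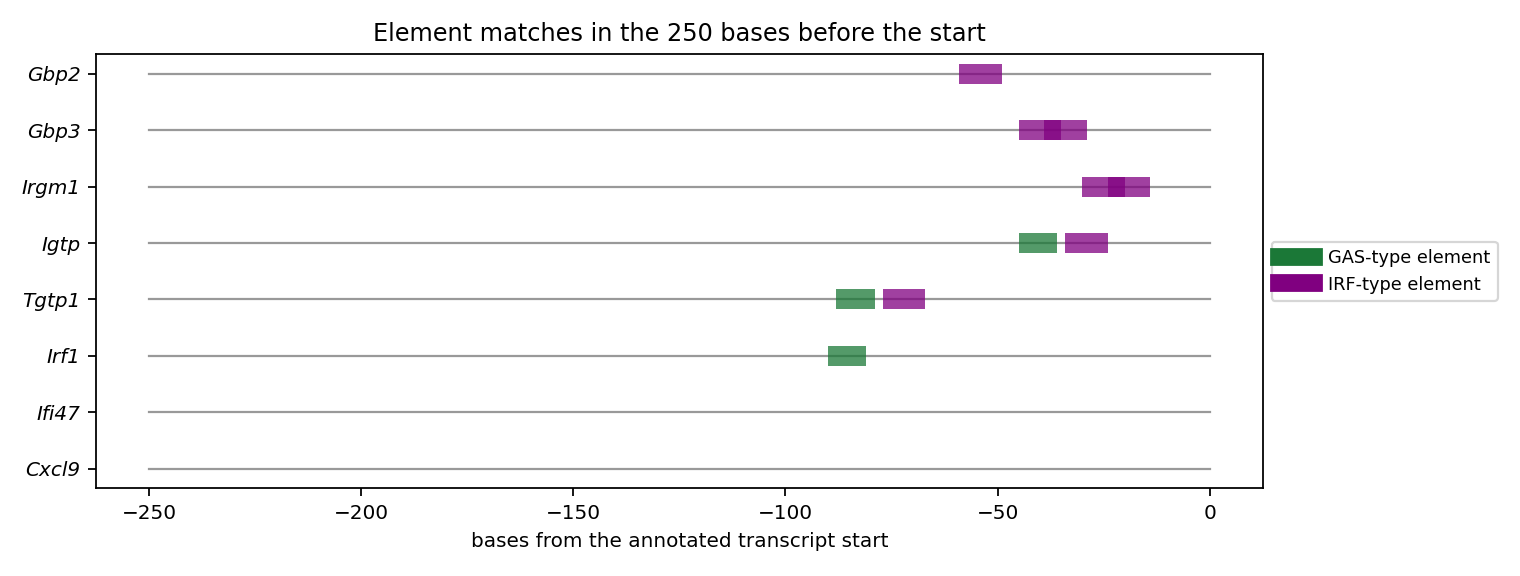
Positions of the element matches (bars) in the 250 bases before the annotated start (x axis, bases from the start) for the 8 genes with a listed promoter, 1 start per gene. Green bars are GAS-type and purple bars IRF-type elements; Ifi47 and Cxcl9 have no bar, and all matches lie within 90 bases of the start.

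Median signals lay between 137.6 and 164.8 on the 6 arrays, which had been scaled to a trimmed mean of 500.2. Ratios of 3' to 5' probe signal rise when RNA is degraded or incompletely copied. The actin ratio was raised on Het replicate 1, at 2.38 against 1.48 to 1.73 on the other arrays. The transferrin receptor ratio was also raised there, at 11.8 against 3.25 to 5.15. The Gapdh ratio was only slightly higher there, at 0.93 against 0.75 to 0.90. Epithelial markers were bright on every array (7 of 7 tested, summed signal 40009 to 47812 in KO and 39925 to 46190 in Het), and lung alveolar markers were also present throughout (9 of 10 with a probe set). E2f2 had no probe set of its own. E2f3 ran from 91.4 to 137.9 in KO and from 73.0 to 144.2 in Het, and its probe set may lie outside the altered region, so neither genotype was checked by its target.

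The 6 GTPases that were measured shared their low and high lesions, and these did not follow the genotype. In all 6, Het replicate 2 was lowest, KO replicate 1 was second lowest and Het replicate 3 was highest. The shares of all probe sets with these lowest and highest lesions were not counted, here or for the gene lists below. The signals below are on the linear scale of the array and are compared between lesions within a gene. Sums over a marker list, and the part of a sum that 1 gene makes up, add probe sets whose brightness is not comparable between genes. They are given as description only.

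Gbp2, a guanylate-binding protein, had signals of 435, 1086 and 707 in KO replicates 1, 2 and 3 and of 812, 237 and 1369 in Het replicates 1, 2 and 3. The KO lesions all lay between the lowest and the highest Het lesion, and the group means were 743 ± 327 in KO and 806 ± 566 in Het (SD, n = 3 arrays each). Its dimmer probe set gave the same lowest and highest lesions, with 387, 915 and 606 in KO and 642, 153 and 1348 in Het. Gbp3, a close relative of Gbp2, had the widest range within Het, with 142, 572 and 738 in KO and 1072, 115 and 1994 in Het. The lowest and the highest Het lesion differed 15.4-fold on the log2(signal + 16) scale, with 1 array a lesion. The Gbp3 means were 484 ± 308 in KO and 1060.2 ± 939.7 in Het (SD, n = 3 arrays each), and the groups overlapped.

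Irgm1 and Igtp are regulatory immunity-related GTPases, which keep the effector GTPases inactive on the cell's own membranes. Irgm1 had signals of 342, 1113 and 701 in KO and 715, 204 and 1368 in Het. Igtp had 307, 1269.5 and 1012 in KO and 971, 236 and 1473 in Het. For both genes KO replicate 1 and Het replicate 2 were the low lesions, the other 4 were at least 2-fold above Het replicate 2, and the groups overlapped. Group means were 719 ± 386 and 762 ± 583 for Irgm1 and 863 ± 498 and 893 ± 622 for Igtp in KO and Het (SD, n = 3 arrays each).

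Iigp1 and Ifi47 are effector immunity-related GTPases, which load onto the vacuoles of intracellular parasites and bacteria. Iigp1 had signals of 549.6, 1970.0 and 3001 in KO and 1851, 371 and 3456 in Het. The spread within Het was 8.96-fold and that within KO 5.33-fold, and KO replicate 3 came close to the highest Het lesion. A dimmer Iigp1 probe set had 279, 689.7 and 1064 in KO and 738, 187 and 1372 in Het, with the same low and high lesions. Ifi47 had 366, 866 and 734 in KO and 603, 171 and 1159.7 in Het. Its KO lesions spanned 2.31-fold, the least of the 6 GTPases, while its Het lesions spanned 6.29-fold.

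Irf1, the transcription factor upstream of many of these genes, varied far less. Its signals were 512, 646 and 444 in KO and 561, 358 and 554 in Het, with means of 534 ± 103 and 491 ± 115 (SD, n = 3 arrays each). Het replicate 2 was again lowest, but the highest lesion was KO replicate 2, and KO replicate 1 lay near the middle. Its lesions spanned 1.54-fold within Het and 1.44-fold within KO.

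Cxcl9 was dim and followed another order. Its signals were 119, 221 and 61.6 in KO and 48.5, 3.19 and 53.7 in Het, with means of 134 ± 80.5 and 35.1 ± 27.8 (SD, n = 3 arrays each). Every KO lesion lay above every Het lesion, and KO replicate 1, a low lesion for the GTPases, was the second highest for Cxcl9. Without a filter on dim probe sets, 7.47% of all probe sets likewise had every KO above every Het lesion. Without detection calls, the 3.19 of Het replicate 2 cannot be told from background.

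**Figure D2:**
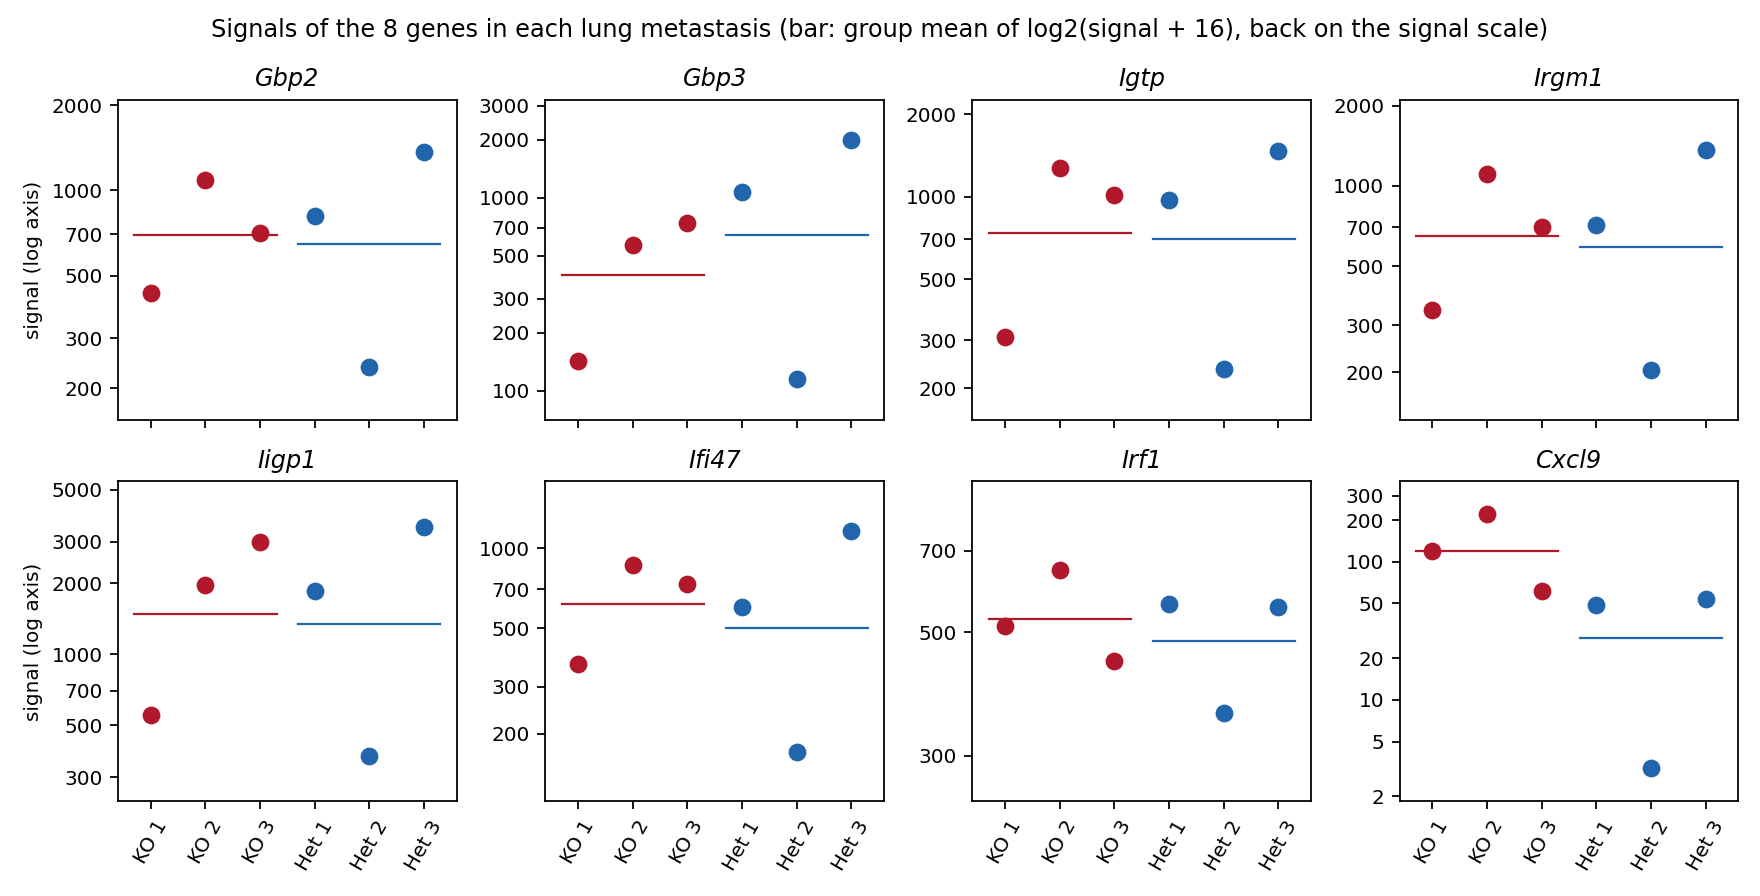
Signal (y axis, log scale, a separate range for each gene) in each of the 6 lung metastases (x axis) for the 8 genes with a probe set of their own; red points are KO, blue points Het, and lines are group means taken on the log2(signal + 16) scale. KO replicate 1 and Het replicate 2 are the low points of all 6 GTPases, whereas Irf1 is nearly level and Cxcl9 is above the Het points in all 3 KO lesions.

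The spread within a genotype was measured as the highest minus the lowest log2(signal + 16) of its 3 lesions. Among Het lesions it ran from 2.45 for Gbp2 to 3.94 for Gbp3 over the 6 GTPases, which is 5.48-fold to 15.4-fold. Among KO lesions it ran from 1.21 for Ifi47 to 2.42 for Iigp1, which is 2.31-fold to 5.33-fold. It was smaller than in Het for 6 of 6 GTPases, and the share of all probe sets with a smaller spread in KO was not counted. Cxcl9 was among the dimmest 40% of probe sets, which were filtered out, so 7 of the 8 genes are set against the 13575 probe sets kept. A spread of at least 1 was found for 6 of the 7 within Het, against 6.24% of all probe sets, and for 6 of the 7 within KO, against 11.6%. The exception was Irf1 in both groups, at 0.63 and 0.53. The median spread of the 7 genes was 2.65 in Het and 1.66 in KO, while the medians over all probe sets were 0.35 and 0.43. Gbp2, with the smallest Het spread of the GTPases, exceeded 99.4% of probe sets and Gbp3 99.9%. In KO, the GTPases exceeded from 92.1% of probe sets (Ifi47) to 98.7% (Iigp1). Irf1 exceeded 79.6% in Het and 61.6% in KO. The median spread of the 7 genes was 0.89 in Het without replicate 2 and 0.53 in KO without replicate 1. A range can only narrow when its extreme lesion is left out, and no range of 2 lesions over all probe sets is given for comparison.

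**Figure D3:**
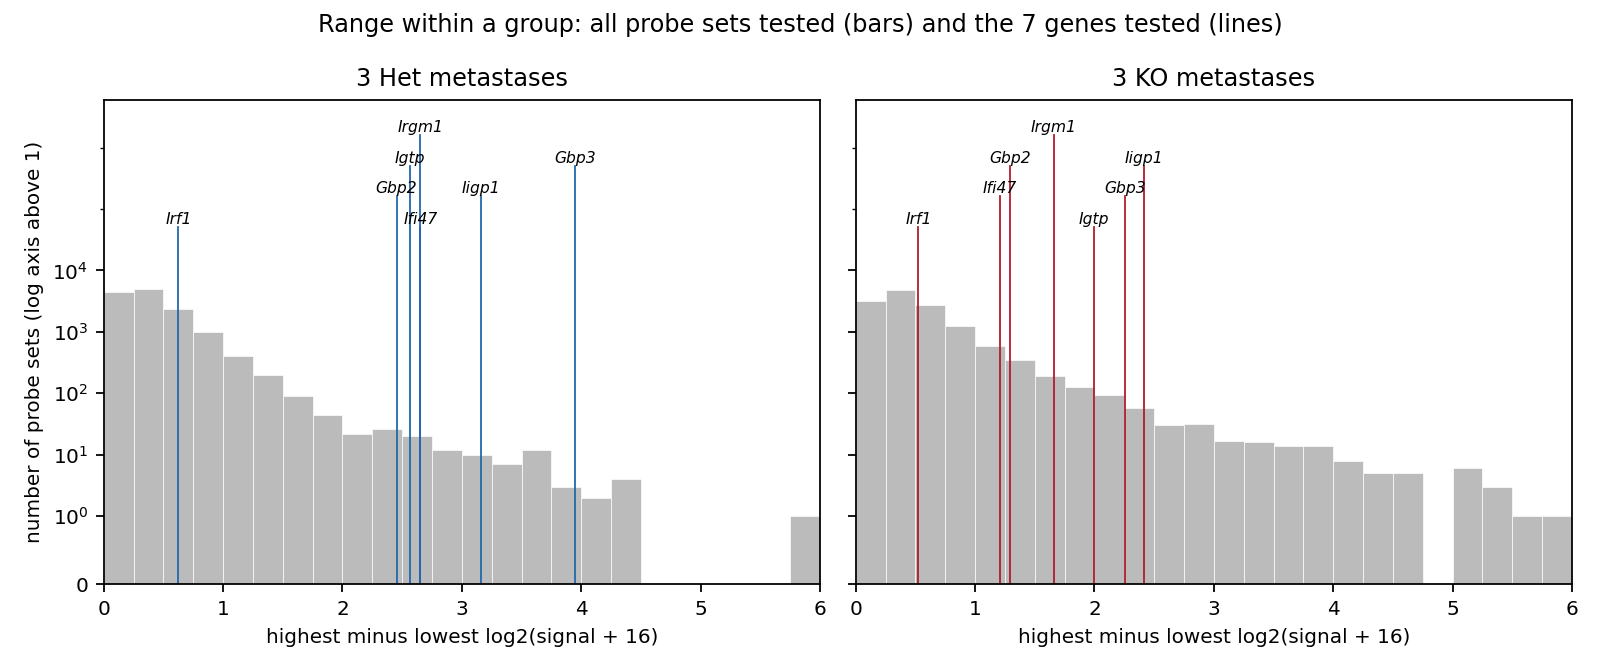
Number of probe sets (y axis, log scale above 1) by the range of log2(signal + 16) among the 3 lesions of a genotype (x axis), for Het on the left and KO on the right; the lines mark the 7 genes that passed the filter. The 6 GTPases lie in the right tail in both groups, from 2.45 to 3.94 in Het and from 1.21 to 2.42 in KO, and Irf1 lies with the bulk of probe sets.

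The 6 lesions form 15 pairs, and in 8 of them at least 4 of the 7 genes differed by 1 or more on the log2 scale in the same direction. In each of these 8 pairs the lower lesion was KO replicate 1 or Het replicate 2, whatever the genotype of the other. Within Het, 6 of the 7 genes were higher in replicate 3 than in replicate 2 (1.73% of all probe sets were) and 6 were higher in replicate 1 than in replicate 2 (2.82%). The median difference of the 6 GTPases was 2.65 and 1.85 in these pairs. Within KO, 6 were higher in replicate 2 than in replicate 1 (1.77%) and 4 were higher in replicate 3 than in replicate 1 (2.25%), with GTPase medians of 1.73 and 1.34. Irgm1 was just inside this limit at 1.003 in the latter pair, and Ifi47 just outside it at 0.97.

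Pairs across genotype ran both ways. Het replicate 3 exceeded KO replicate 1 in 6 genes (2.58% of all probe sets) and Het replicate 1 did so in 4 (2.03%). In the other direction, KO replicate 2 exceeded Het replicate 2 in 6 genes (4.82%) and KO replicate 3 did so in 6 (2.71%). In 3 more pairs 1 gene passed: Ifi47 was higher by 1.03 in KO replicate 1 than in Het replicate 2 (6.16%), and Gbp3 was higher in Het replicate 3 than in KO replicate 2 by 1.77 (1.36%) and than in KO replicate 3 by 1.41 (2.34%). No gene of the 7 passed in the remaining 4 pairs, all of them among KO replicates 2 and 3 and Het replicates 1 and 3. Het replicate 1, the array with the raised 3' to 5' ratios, was neither lowest nor highest for any GTPase.

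KO and Het metastases were then compared with limma, with the 3 Het arrays averaged into 1 sample because of their shared title number. KO minus Het log2 differences were 0.10 (SE 0.50) for Gbp2, 0.07 (SE 0.78) for Igtp, 0.13 (SE 0.62) for Irgm1, 0.14 (SE 0.90) for Iigp1 and 0.30 (SE 0.50) for Ifi47. Gbp3 was at -0.68 (SE 0.88), the 1 negative difference on the log2(signal + 16) scale, and Irf1 was at 0.13 (SE 0.29). On the linear scale the direction differed, with the KO mean below the Het mean for 5 of the 7 genes (Gbp2, Gbp3, Igtp, Irgm1 and Iigp1) and above it for Ifi47 and Irf1. The limma adjusted p was 0.9999 for each of the 7 genes, and none passed. The spread in this fit comes from the 3 KO samples alone, so a p near 1 does not show that the groups are alike. Over all probe sets, limma called 0 of 13575 (0.0%) at an adjusted p under 0.05, and 301 (2.22%) had an unadjusted p under 0.05, with 0 of the 7 genes among them. With each array as a sample, limma again called 0 and 1394 had an unadjusted p under 0.05, with adjusted p from 0.842 to 0.980 for the 7 genes. The groups overlapped for 7 of 7 genes, while 16.7% of all probe sets had no overlap. The median difference of the 7 genes was 0.13, against -0.02 over all probe sets, and the log2 mean was higher in KO for 6 of 7, against 47.6% of all probe sets. Single lesions set this sign: leaving out Het replicate 2 gave a median of -0.60, leaving out KO replicate 2 gave -0.21, and leaving out KO replicate 1 or Het replicate 3 gave 0.57 or 0.64.

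Cxcl9 was tested in a fit with no filter on dim probe sets. Its log2 difference was 1.61 (SE 0.67), higher in 3 of 3 KO lesions, with an unadjusted limma p of 0.059 and an adjusted p of 0.9999, so it did not pass. The difference was 1.01 without Het replicate 2, the lesion with a signal of 3.19, and 1.21 without KO replicate 2. It was 2.40 with a pseudocount of 1 and 0.96 with a pseudocount of 64, since the gene is dim.

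**Figure D4:**
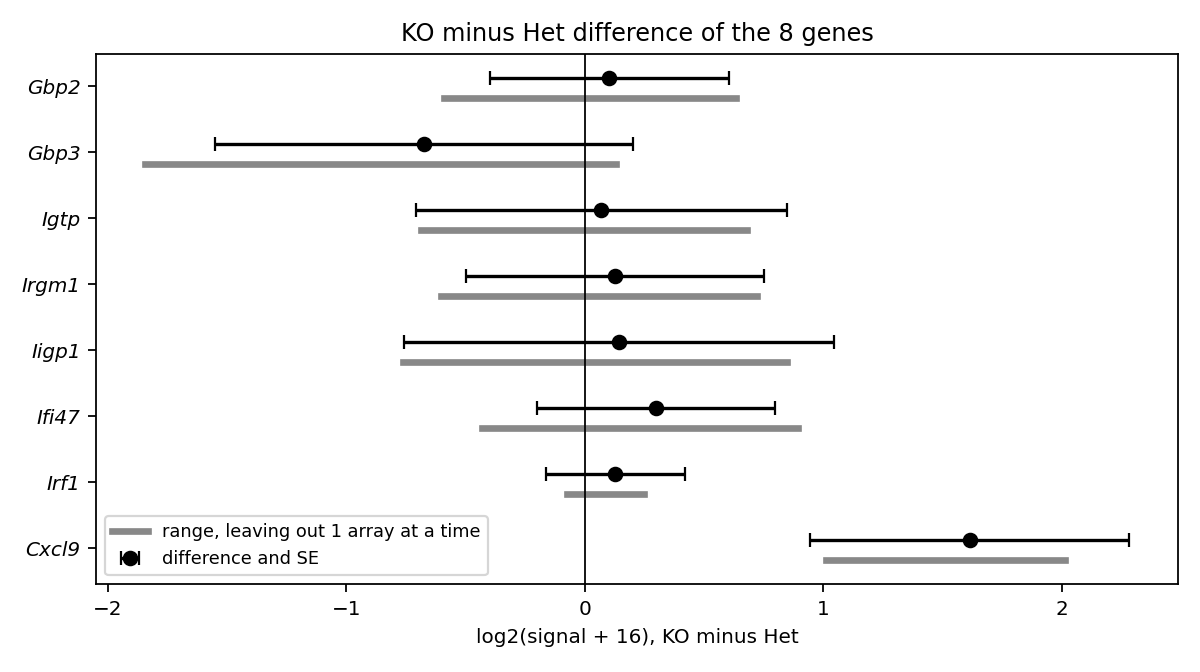
Difference of KO minus Het in log2(signal + 16) (x axis) for the 8 genes (y axis); black points and bars are the difference and the SE of the limma fit (for Cxcl9, the fit with no filter), and grey bars span the values obtained when 1 array at a time is left out. The grey bars of the 7 genes other than Cxcl9 cross 0, and that of Cxcl9 runs from 1.01 to 2.02.

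The other genes of the pathway were taken from lists by pathway and cell type, and limma called 0 of them in either direction in each list. In tissue RNA, fewer cells of a type and less RNA per cell cannot be told apart. Of 14 other interferon-inducible GTPases, 7 had a probe set of their own and 5 were tested. Het replicate 3 was highest for 4 of these 5 and Het replicate 2 lowest for 3, and their median KO minus Het difference was -0.03, and leaving out Het replicate 2 or Het replicate 3 gave -0.94 or 0.55. Gbp7, another guanylate-binding protein, had 476, 856 and 811 in KO and 871, 192 and 1341 in Het. Irgm2, the third regulatory immunity-related GTPase, had 110.0, 464 and 391 in KO and 455, 68.0 and 649 in Het. Both repeated the low lesions KO replicate 1 and Het replicate 2. Mx1 and Mx2, antiviral GTPases known chiefly as type I interferon targets, had the same low lesions in the reverse order. KO replicate 1 was their lowest lesion, at 29.6 and 7.02, and Het replicate 2 their second lowest. Both were highest in Het replicate 3, at 743 and 562.

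The signalling genes spanned narrower ranges than the GTPases. Of 14 listed, 13 had a probe set of their own and 10 were tested, with a median range over the 6 lesions of 0.95 on the log2 scale, against at least 2.45 for each GTPase, and a median KO minus Het difference of -0.12, and leaving out Het replicate 2 or Het replicate 3 gave -0.22 or 0.0076. Ifng itself was dim and untested, between 1.07 and 13.7 in KO and between 4.18 and 9.995 in Het, so no order of lesions is read from it. The receptor chain Ifngr1 had 310.2, 349 and 512 in KO and 516, 581 and 598 in Het, and Het replicate 2 was thus among the higher lesions. Ifngr2 had 186, 238 and 146 in KO and 101, 167 and 145 in Het. Jak1 had 904, 1050.4 and 973 in KO and 1167, 1147 and 1236 in Het, and Jak2 had 375, 425 and 332 in KO and 597, 432 and 520.4 in Het. For Ifngr1 and both kinases every KO lesion lay below every Het lesion, and none of the 3 passed the test. Groups without overlap, in either direction, were found for 16.7% of all probe sets. Irf9, which acts with Stat2 in type I signalling, had 189, 442 and 416 in KO and 392, 274 and 657 in Het, and Stat2 had 65.7, 106 and 113 in KO and 96.6, 46.8 and 166 in Het. For Irf9 and Stat2 the low lesions were the ones that were low for the GTPases. Irf8 ran from 73.9 to 169, Irf2 from 137 to 223, the phosphatase Ptpn2 from 1913 to 2943 and the inhibitor Socs3 from 663 to 1338. The inhibitor Socs1 (5.83 to 48.5) and the class II activator Ciita (22.1 to 43.8) were too dim to be tested.

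Genes of class I antigen loading and the immunoproteasome, which cut and load peptides for T cells, shared part of the pattern. Het replicate 2 was lowest for 9 of the 10 tested, and the median KO minus Het difference was 0.17, and leaving out Het replicate 2 or Het replicate 3 gave -0.027 or 0.34. B2m, the light chain of class I, had 5681, 10744 and 8185 in KO and 7602, 4101 and 9613 in Het. Tap1, a peptide transporter subunit, had 153, 390.0 and 295 in KO and 305, 125 and 381 in Het. Both were low in KO replicate 1 and Het replicate 2, as the GTPases were. The immunoproteasome subunit Psmb8 had 1279, 1604 and 1305 in KO and 837, 279 and 1301 in Het, so KO replicate 1 was not low for it, and Psmb9 had 259.8, 745 and 407 in KO and 353, 132 and 532 in Het.

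MHC class II genes, which present antigen to helper T cells, took a different order. KO replicate 1 was highest and Het replicate 2 lowest for 4 of 4 tested, and the median KO minus Het difference was 1.61. With 1 array left out at a time, this median ran from 1.13 to 2.18. H2-Aa, a class II chain, had 3852, 2419 and 686 in KO and 758, 356 and 410.3 in Het, and Cd74, the invariant chain, had 4798, 2671 and 855 in KO and 947, 368 and 599 in Het. The groups overlapped for both, through KO replicate 3. H2-Ab1, another class II chain, had 1305, 844 and 382 in KO and 378, 208 and 303 in Het. Its groups narrowly did not overlap, as for 16.7% of all probe sets in either direction, and it did not pass the test.

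Type I interferon antiviral genes had the same high lesion as the GTPases. Of 23 listed, 18 were tested, with a median range of 3.36 over the 6 lesions and Het replicate 3 was highest for 17 of these 18. Their median KO minus Het difference was -0.59, and single lesions set it: it was 0.12 without KO replicate 1, 0.023 without Het replicate 3, -0.30 without Het replicate 1, -1.18 without KO replicate 3 and -1.58 without Het replicate 2. Ifit1, which binds viral RNA, had 90.9, 672 and 901 in KO and 948, 150.0 and 2183 in Het. Irf7, the factor that amplifies the type I response, had 106, 507 and 985 in KO and 1292, 114 and 2355 in Het. Oas2 and Oasl2 had the same 2 low lesions. On the scale centred on each gene's mean, the list's median was -1.83 in KO replicate 1 and -1.54 in Het replicate 2, beside mean values of -1.04 and -1.67 for the 6 GTPases described here. Which interferon the lesions were exposed to was not tested. Of 16 other interferon gamma targets, 6 were tested, with a median difference of -0.01. Leaving out Het replicate 2 or Het replicate 3 gave -0.32 or 0.18. Het replicate 2 was lowest for 5 of the 6 tested and Het replicate 3 highest for 4. Among them Parp14 had 251, 565 and 566 in KO and 709, 199.8 and 936 in Het, and Icam1, an adhesion molecule, had 1119, 806 and 272 in KO and 835, 364 and 472 in Het.

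**Figure D5:**
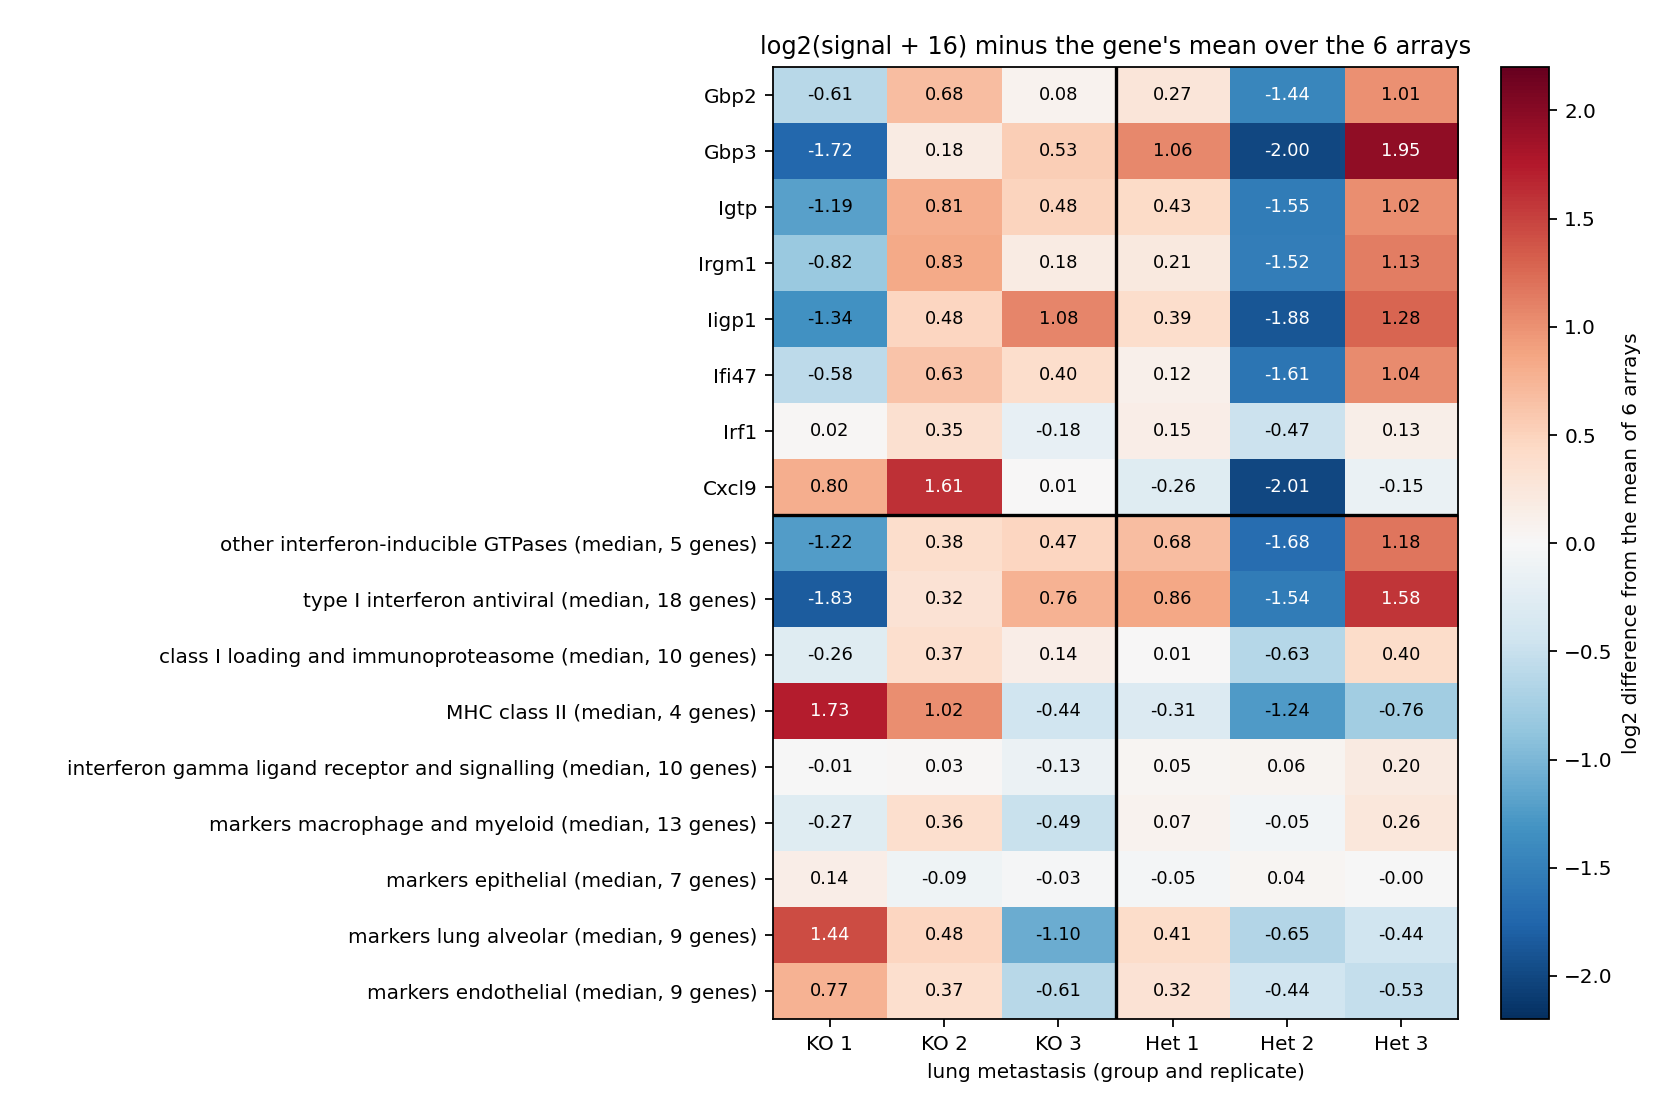
Heat map of log2(signal + 16) minus each gene's mean over the 6 arrays (colour and printed value), with the 8 genes above the line and the medians of 9 lists below it (rows) in the 6 lung metastases (columns). KO replicate 1 and Het replicate 2 are blue for all 6 GTPases, for the other interferon-inducible GTPases and for type I antiviral genes, whereas KO replicate 1 is red for Cxcl9, MHC class II and lung alveolar genes.

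Markers of other cells also varied between lesions, and their part in these results was not tested. Of 22 T and NK cell markers, 19 had a probe set and 2 passed the filter. The summed signal of the 19 was 777, 1333 and 569 in KO and 783, 622 and 1109 in Het, with none at 0 and the lowest signal at 1.21. KO replicate 2 and Het replicate 3 had the highest sums and KO replicate 3 and Het replicate 2 the lowest. Ccl5, a chemokine of T and NK cells, made up 502 of the 1109 in Het replicate 3. It made up 249 of the 783 in Het replicate 1 but 66.0 of the 622 in Het replicate 2. The order of the Het sums thus rested largely on this 1 gene. The 2 tested markers, Zap70 and Ccl5, took unlike orders within Het. Zap70 had 143, 366 and 178 in KO and 127, 167 and 101 in Het, so Het replicate 3 was its lowest lesion. Ccl5 had 75.5, 205 and 81.5 in KO and 249, 66.0 and 502 in Het, so Het replicate 3 was its highest. The centred median of these 2 markers was -0.53 in KO replicate 1 and -0.51 in Het replicate 2. It was 0.73 in KO replicate 2 and 0.50 in Het replicate 3, and it averages 2 unlike patterns. Cd3e, part of the T cell receptor complex, had 39.4, 75.8 and 10.3 in KO and 18.3, 7.02 and 16.2 in Het. Cd3d had 11.5, 76.3 and 2.15 in KO and 28.9, 23.2 and 10.04 in Het. Gzmb had 30.9, 47.8 and 9.16 in KO and 31.1, 46.1 and 79.1 in Het. Het replicate 2 was thus lowest for Cd3e, whereas KO replicate 3 was lowest for Cd3d and Gzmb. Cd3e, Cd3d and Gzmb were dim and did not pass the filter. Macrophage and myeloid markers, of which 13 of 15 were tested, summed to 11255 to 22014 in KO and 17955 to 20776 in Het. Lyz2 alone made up 9098 of the 22014 in KO replicate 2 and 3757 of the 11255 in KO replicate 3. Het replicate 2 was lowest for 0 of these 13. The list's centred median was -0.27, 0.36 and -0.49 in KO replicates 1, 2 and 3 and 0.07, -0.05 and 0.26 in Het replicates 1, 2 and 3. It was thus below 0 in both low lesions of the GTPases, but lowest in KO replicate 3. Of 8 B and plasma cell markers 2 were tested, and all 6 with a probe set summed to 608 to 3575 in KO and 1061 to 2676 in Het. Jchain made up 2979 of the 3575 in KO replicate 2 and 171 of the 608 in KO replicate 3. In Het it made up 2041 of the 2676 in replicate 1 and 690 of the 1061 in replicate 2, so these sums rested largely on 1 gene. Lung alveolar markers, 9 of 10 tested, summed to 66696, 38173 and 12178 in KO and to 31028, 19531 and 22207 in Het, and KO replicate 1 was highest for 8 of the 9. Endothelial markers, 9 of 9 tested, summed to 1403 to 3755 in KO and 1609 to 2788 in Het, with KO replicate 1 highest for 9 of 9. KO replicate 1, a low lesion for the GTPases, thus had the highest alveolar and endothelial sums, whereas Het replicate 2, the lowest for the GTPases, had the second lowest alveolar sum.

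The genes whose pattern lay nearest to the mean of the 7 tested genes were found by the root mean square distance of centred log2 values over the 6 arrays, among 7950 other genes. Trim30a was nearest, at 0.091, with signals of 108, 285 and 275 in KO and 293, 68.5 and 509 in Het. Slfn2 (0.16), Lgals3bp (0.17), Slfn8 (0.20), Parp14 (0.21), Gbp7 (0.21), Zbp1 (0.22), Irgm2 (0.24), Ifi202b (0.26) and Ifi209 (0.27) followed, and the median distance over all genes was 0.92. Of the genes that made up the mean, Irgm1 lay at 0.15 and Igtp at 0.17, while Gbp3 lay at 0.63 and Irf1 at 0.73. The genes nearest to Irf1 were others: Dusp19 (0.068), Tm6sf1 (0.074), C2cd2l (0.077), Fgr (0.084) and Vwa1 (0.085), against a median distance of 0.34. These distances describe the 6 arrays and carry no test.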

How the data were processed

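RNA from 6 lung metastases was measured on 1-colour Affymetrix arrays. The deposited values were intensities on a linear scale, and MAS5 and Affymetrix Expression Console are named in the submitters' processing notes; no version is given there. Each deposited array has a trimmed mean of 500.2 (2% trimmed at each end). No depth applies to arrays, and their number limits the precision.

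Of 22690 probe sets, 64 were controls, 20380 had 1 gene symbol, 691 several and 1555 none. Signals were taken as log2(signal + 16), which makes the fold changes of dim genes too small. After removal of controls, the dimmest 40% by mean log2 value were dropped, and 13575 probe sets remained. Where a gene had several probe sets, the one with the highest mean over the 6 arrays was used. The test was that of limma 3.58.1 (R 4.3.3; lmFit, eBayes with a trend) and Benjamini-Hochberg adjustment, with 3 KO samples against the 3 Het arrays averaged into 1 sample, which was assumed to vary like a KO sample. The procedure was run on simulated data in which all 6 arrays varied independently with the KO spread. That simulation therefore did not check the assumption made for the averaged Het sample. SD is over arrays and SE is that of limma.

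The genes and lists were chosen with earlier results of these data known. Named besides the 9 genes were all signalling genes with a probe set, up to 4 genes per other list with the largest range over the arrays, the 10 genes nearest to the mean pattern and the 5 nearest to Irf1. Alternatives covered the pseudocount, normalization, filter, probe set choice, unit of replication and each array left out.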

Additional observations from a re-analysis of the deposited data

How the results depend on the processing

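No gene described here passed the adjusted threshold under any alternative run, and limma called 0 probe sets in each, with 160 to 1394 at an unadjusted p under 0.05. The sign of KO minus Het depended on single lesions. With 1 array left out at a time, the log2 difference ran from -0.59 to 0.64 for Gbp2, -1.84 to 0.13 for Gbp3, -0.69 to 0.68 for Igtp, -0.60 to 0.72 for Irgm1, -0.76 to 0.85 for Iigp1, -0.43 to 0.89 for Ifi47 and -0.077 to 0.25 for Irf1. The median range of the 7 genes ran from 0.89 to 2.65 within Het and from 0.53 to 1.66 within KO. With another pseudocount, normalization, filter or probe set choice, no sign turned for these 7 genes, and the counts of 6 genes that differed within Het and within KO stayed at 6. A filter on the mean of the linear signals, chosen after seeing the data, kept Cxcl9 in the test, with limma adjusted p = 0.9999. No paired analysis was possible because the labels give the KO arrays no replicate numbers that the Het arrays share. With 1 array a lesion, technical error cannot be told apart from differences between lesions, and should the Het lesions come from a single animal, genotype and animal cannot be told apart.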
